A study of Mus musculus with 4 samples.

Results

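The 39 genes described here, many of them known from skeletal muscle or tendon, gave a strong signal on a single array of the series, the one labelled Control replicate 1, and little on the other 3. They were picked by their measured values, from 18193 genes with a probe set assigned to 1 symbol: each gene was represented by its brightest probe set (mean of log2 values), which had to read at least 1000 on the array labelled Control replicate 1 and at most 100 on each other array. In all, 53 genes (0.291%) passed both limits, and 14 of them were left out by the rule because they are sarcomeric myosins, troponins and their partners or other defining genes of the fast fiber (Tnnc2, Mybpc1, Pvalb, Myh4, Atp2a1, Tnnt3, Myh1, Myhas, Tnni1, Ryr1, Actn3, Myh2, Mylk2 and Ampd1). With any of the other arrays in the place of the high one, the same limits passed 0 genes. The difference between Control replicate 1 and the other arrays is therefore what chose the members, and it is given below as a description, without a test.

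Skeletal muscle fibers contract when an action potential runs into the transverse tubule, where a voltage sensor in the tubule membrane opens the calcium release channel of the sarcoplasmic reticulum at a junction called the triad. Heart muscle uses related but mostly different genes for its filaments, its calcium release units and its transcription factors. Limb and trunk muscles are also marked by Hox genes, which record position along the body, and they end in tendons, whose fibroblasts secrete collagen-binding proteoglycans.

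The series holds 4 arrays of mouse heart RNA of adult C57BL/6J mice, 2 labelled Rhau KO (genotype CAAG-ERT2-Cre;Rhau F/F) plus 2 Control arrays from Rhau F/F mice without the Cre. Rhau, listed by its symbol Dhx36, is an RNA helicase that unwinds G-quadruplexes, and both groups carried the floxed alleles and were given 5 doses of tamoxifen at 2 months of age, with hearts collected 2 months after the treatment. The inducible Cre is driven by a promoter that is not limited to heart muscle. The values are MAS 5.0 intensities on a linear scale, in arbitrary units. Whether the replicates came from separate animals was not given in the sources used here, and p-values then measure the spread between arrays only.

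Before any result, the array labelled Control replicate 1 stood apart from the rest. Its log2 values correlated with those of the other arrays at r = 0.884 to 0.885 across genes, against 0.943 to 0.948 among the other 3 (genes are not independent replicates). The 17 listed ventricular cardiomyocyte genes summed to 135489 on it, against 511659 and 505982 on the Rhau KO arrays and 512106 on Control replicate 2. Most of the sum on Control replicate 1 came from Myl2, Myl3, Fabp3 and Hrc, at 37359, 37087, 23697 and 16007. The sum therefore follows these genes more than the list as a whole, and it does not measure how much ventricular RNA was there. Of these, Myl2, Myl3 and Hrc were not over 2-fold lower there than on each other array. On Control replicate 1, 8 of the 17 read at most 100, and none did elsewhere. Cardiac troponin I (Tnni3) read 10.3 on the array labelled Control replicate 1, against 39371 and 37838 on the Rhau KO arrays and 38930 on Control replicate 2. The heart label was thus not matched by most of the listed ventricular transcripts on this array. Everything below that names Control replicate 1 rests on 1 array with no replicate. Dhx36 itself read 568 and 537 on the arrays labelled Rhau KO, against 327 and 194 on those labelled Control, for 1 of its 3 probe sets, and all 3 were higher in the arrays labelled Rhau KO. This runs against the label Rhau KO. Where the 3 probe sets lie relative to the deleted stretch was not given in the sources used here, and the arrays are named by their labels throughout. The median gene read 174 on Control replicate 1, against 202 and 197 on the Rhau KO arrays and 190 on Control replicate 2. The paper states that the raw data were normalized, so these medians cannot show whether the overall RNA level differed between the arrays.

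Over the 39 members, the median intensity was 2320 on Control replicate 1, against 29.8 and 35.5 on the 2 Rhau KO arrays and 38.9 on Control replicate 2. Every member lay between 1035 and 35496 on the first and between 1.48 and 93.3 on the other 3, so the arrays did not overlap, as the rule demands. The ratio of Control replicate 1 to the highest other array ran between 12.6 and 434, and 12 members exceeded 100-fold. On the log2 scale the difference between Control replicate 1 and the mean of the other 3 had a median of 6.75. Between 40.3% and 42.3% of all genes read under 100 on each array, so the low values of the members lie where much of the array gives little signal, and their order there carries little information. Fewer cells of a type and less RNA per cell cannot be told apart in such bulk samples.

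**Figure D1:**
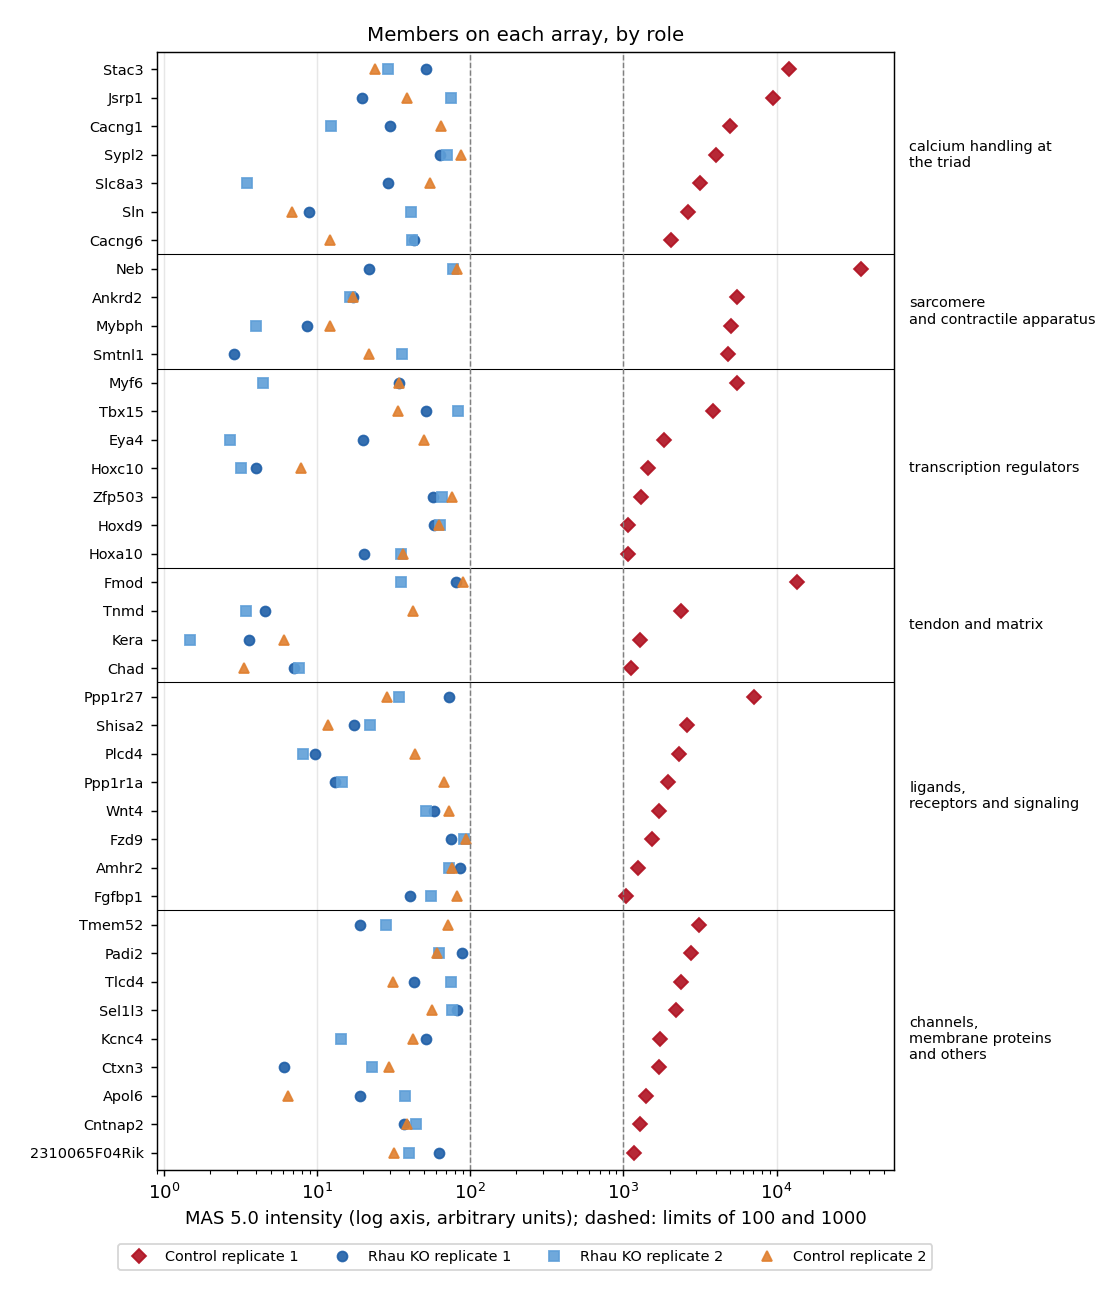
MAS 5.0 intensity (x axis, log scale, arbitrary units) of the 39 members on each of the 4 arrays, grouped by role, with dashed lines at the limits of 100 and 1000. Each point is 1 array, and the diamonds of Control replicate 1 all lie at or above 1035 while every other point lies at or below 93.3.

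Genes for calcium handling at the triad made up 7 of the members. Stac3, an adaptor that holds the voltage sensor in place for calcium release, read 12067 on Control replicate 1, against 51.1 and 29.0 on the Rhau KO arrays and 23.7 on Control replicate 2. Jsrp1, a sarcoplasmic reticulum protein that binds the voltage sensor, read 9442 on Control replicate 1, against 19.6 and 74.6 on the Rhau KO arrays and 38.9 on Control replicate 2. For both genes the Rhau KO arrays and Control replicate 2 lay in the same low range. Cacng1, the gamma subunit of the skeletal voltage sensor, read 4972 on Control replicate 1, against 29.8 and 12.4 on the Rhau KO arrays and 64.4 on Control replicate 2. Sarcolipin (Sln), a small inhibitor of the reticulum calcium pump, read 2656 on Control replicate 1, against 8.85 and 40.9 on the Rhau KO arrays and 6.85 on Control replicate 2. Sarcolipin is a transcript of atrial as well as skeletal muscle in mice, and the atrial genes measured with it are given further below. The remaining members of this role were Sypl2 (mitsugumin-29, a triad membrane protein), Slc8a3 (a sodium-calcium exchanger) and Cacng6 (a calcium channel gamma subunit), at 4026, 3177 and 2042 on Control replicate 1. These 3 genes read between 3.47 and 87.0 on the other arrays.

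Of the contractile apparatus, 4 genes were members after the myosin and troponin families were set aside. Nebulin (Neb), the giant protein that runs along the thin filament of skeletal muscle, read 35496 on Control replicate 1, against 21.8 and 77.7 on the Rhau KO arrays and 81.7 on Control replicate 2. Its shorter relative in heart muscle, nebulette (Nebl), was the reverse, with 51.2 on Control replicate 1, against 9643 and 9488 on the Rhau KO arrays and 9917 on Control replicate 2. The rule fixed the direction of Neb, and Nebl was named after its values were seen. Over all 18193 genes, 2051 were over 2-fold lower on Control replicate 1 than on each other array. Mybph, a myosin-binding protein of skeletal muscle, read 5007 on Control replicate 1, against 8.58 and 3.98 on the Rhau KO arrays and 12.1 on Control replicate 2. Ankrd2, an ankyrin repeat protein of the sarcomere that responds to stretch, read 5496 on Control replicate 1, against 17.2 and 16.5 on the Rhau KO arrays and 17.2 on Control replicate 2. Smtnl1, a smoothelin-like protein, read 4842 on Control replicate 1, against 2.86 and 35.9 on the Rhau KO arrays and 21.9 on Control replicate 2. The median difference of these 4 genes was 8.96 on the log2 scale, and that of the 7 triad genes was 7.49.

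The 4 tendon and matrix members are on the list of tendon and cartilage genes given further below, and which cells made them was not measured. Fibromodulin (Fmod), a small leucine-rich proteoglycan that binds collagen fibrils, read 13542 on Control replicate 1, against 80.5 and 35.5 on the Rhau KO arrays and 89.1 on Control replicate 2. Tenomodulin (Tnmd), a membrane protein of tendon cells, read 2379 on Control replicate 1, against 4.55 and 3.45 on the Rhau KO arrays and 42.2 on Control replicate 2. Keratocan (Kera) and chondroadherin (Chad), leucine-rich matrix proteins, read 1279 and 1118 on Control replicate 1 and between 1.48 and 7.63 on the other arrays. With these genes the members include listed markers of a cell type other than the muscle fiber, and the name skeletal covers only part of them.

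The start regions of 3 members that carry short core or muscle promoter motifs are printed below, 1 sarcomeric gene with 3 of the motifs searched, 1 sarcomeric gene with a TATA box and 1 matrix gene with a TATA box. Each is the 250 bases before the RefSeq start (GRCm38.p6, plus strand): Mybph at chr1:134193198-134193447, Ankrd2 at chr19:42035777-42036026 and Chad at chr11:94564797-94565046. Capitals mark the E-box CAGCTG, the MCAT motif GGAATG, and the TATA box TATAAA, which reads TTTATA on the opposite strand.
Mybph: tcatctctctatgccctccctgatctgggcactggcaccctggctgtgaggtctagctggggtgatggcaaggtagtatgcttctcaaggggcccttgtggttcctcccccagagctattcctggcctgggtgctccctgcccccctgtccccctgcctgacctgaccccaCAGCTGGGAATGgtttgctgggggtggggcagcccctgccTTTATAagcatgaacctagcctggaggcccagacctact
Ankrd2: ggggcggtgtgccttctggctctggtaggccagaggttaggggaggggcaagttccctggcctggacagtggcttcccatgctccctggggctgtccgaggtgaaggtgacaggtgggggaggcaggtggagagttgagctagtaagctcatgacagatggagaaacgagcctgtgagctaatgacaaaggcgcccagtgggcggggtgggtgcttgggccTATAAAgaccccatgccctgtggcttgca
Chad: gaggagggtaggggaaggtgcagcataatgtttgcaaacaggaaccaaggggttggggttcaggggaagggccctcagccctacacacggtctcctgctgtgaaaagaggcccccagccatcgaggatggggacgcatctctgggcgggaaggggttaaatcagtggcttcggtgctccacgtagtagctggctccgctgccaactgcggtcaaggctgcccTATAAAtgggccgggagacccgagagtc
In Mybph the E-box CAGCTG begins 79 bases before the start and is directly followed by GGAATG, the MCAT motif, at 73 bases, and TTTATA begins at 39 bases. TATAAA begins 29 bases before the start in Ankrd2 and 28 bases before it in Chad. RefSeq promoters were matched for 26 of the 39 members, with 31 start sites among them, and the 250 bases before each start were searched on both strands. The E-box CANNTG was found before 22 of the 31 member starts (71.0%), against 66.2% of all 32851 starts. CAGCTG, which CANNTG includes, was found before 5 (16.1%) against 13% of all starts, in Amhr2, Mybph, Ppp1r27, Slc8a3 and Sypl2. The TATA box was found before 6 (19.4%) against 12.4%, and the MCAT motif before 4 (12.9%) against 12.6%, each in either orientation. The MEF2 site and the CArG box were found before 0 member starts, against 0.508% and 1.47% of all starts. A match is a description of the letters in this window, and the shares were not tested.

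Transcription regulators made up 7 members. Myf6, a myogenic basic helix-loop-helix factor of mature fibers, read 5552 on Control replicate 1, against 34.4 and 4.45 on the Rhau KO arrays and 34.3 on Control replicate 2. Tbx15, a T-box factor of fast glycolytic fibers in mice, read 3861 on Control replicate 1, against 51.8 and 83.2 on the Rhau KO arrays and 33.8 on Control replicate 2. Eya4, of the family of cofactors that act with homeobox factors, read 1835 on Control replicate 1 and between 2.70 and 50 on the other arrays. The zinc finger gene Zfp503 and the Hox genes Hoxc10, Hoxd9 and Hoxa10 read 1309, 1443, 1079 and 1065 on Control replicate 1, with at most 75.9 on any other array. Hoxa10 and Hoxd9 lie close to the lower limit, and their log2 differences of 5.17 and 4.14 were below the members' median. With the mean of all its probe sets, the difference of Hoxa10 was 2.83.

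Signaling members numbered 8, with ligands, receptors and enzymes among them. Wnt4, a secreted Wnt ligand, read 1700 on Control replicate 1, against 57.7 and 51.8 on the Rhau KO arrays and 72.9 on Control replicate 2. Fzd9, a receptor of the Frizzled family that binds Wnt ligands, read 1531 on Control replicate 1, against 74.8 and 91.2 on the Rhau KO arrays and 93.3 on Control replicate 2. A ligand and a receptor of the same pathway were thus both among the members, although Fzd9 lay near the upper limit. Shisa2, which holds back receptors of the Wnt and FGF pathways in the cell, read 2621 on Control replicate 1, against 17.3 and 22.1 on the Rhau KO arrays and 11.8 on Control replicate 2. Ppp1r27 and Ppp1r1a, a regulatory subunit and an inhibitor of protein phosphatase 1, read 7160 and 1962 on Control replicate 1 and between 13.1 and 72.7 on the other arrays. Plcd4 (a phospholipase C), Amhr2 (the receptor of anti-Müllerian hormone) and Fgfbp1 (a carrier of fibroblast growth factors) read 2320, 1249 and 1035 on Control replicate 1. These 3 genes read between 8.14 and 85.4 elsewhere, and the median difference of the 8 was 5.60 on the log2 scale.

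The last 9 members were channels, membrane proteins and enzymes with no shared role. Kcnc4, a fast voltage-gated potassium channel, read 1731 on Control replicate 1, against 51.6 and 14.2 on the Rhau KO arrays and 42.2 on Control replicate 2. Cntnap2, a membrane protein that gathers potassium channels beside the node in myelinated axons, read 1293 on Control replicate 1, against 37.0 and 44.2 on the Rhau KO arrays and 38.8 on Control replicate 2. Padi2, which converts arginine residues to citrulline, read 2772 on Control replicate 1, against 88.3 and 62.6 on the Rhau KO arrays and 60.7 on Control replicate 2. Tmem52, Tlcd4, Sel1l3, Ctxn3, Apol6 and 2310065F04Rik read between 1169 and 3125 on Control replicate 1 and between 6.10 and 81.7 on the others. No role is stated for these 6 genes, which are listed by their symbols.

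The members just inside and just outside the limits show how the boundary falls. Just inside the lower limit of 1000 were Fgfbp1, Hoxa10 and Hoxd9, and just outside it were Kcnc1 with 992, St8sia5 with 989 and Chrna1 with 837 on Control replicate 1. In all, 29 genes with at most 100 on the other arrays read between 500 and 1000 on it. Just inside the upper limit of 100 were Fzd9, Fmod and Padi2, and just outside it were Ip6k3, Angptl7 and Neurl1a, whose highest other arrays read 102, 108 and 109. Another 21 genes that reached 1000 on Control replicate 1 had their highest other array between 100 and 200, so the 39 are part of a continuous range.

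Probe sets that the rule did not use gave a second reading of the same arrays, though not of other RNA. Of the members, 22 had a single probe set and 17 had 29 further ones. Among these 29, 22 (75.9%) were over 2-fold higher on Control replicate 1 than on each other array, against 6.48% of the 16752 probe sets not chosen for their gene. At least 1 such probe set was found in 14 of the 17 members, and in 10 of them all did so. However, 6 of the 22 read at most 100 on every array, where order carries little information. The other 16 belonged to 11 members. The 5 further probe sets of Fmod read between 4207 and 6489 on Control replicate 1 and at most 86.3 on the others, and without Fmod the count was 17 of 24 (70.8%). The chosen probe set of Fmod and 4 of these 5 are of a kind that can bind other transcripts. The second probe set of Shisa2 read 3044 on Control replicate 1, against 7.18 and 7.53 on the Rhau KO arrays and 26.4 on Control replicate 2. For Cacng6 it read 987 on Control replicate 1, against 33.9 and 3.26 on the Rhau KO arrays and 24.6 on Control replicate 2. Tbx15 and Eya4 also had dimmer readings of the same shape, with 837 and 614 on Control replicate 1 and at most 49.9 on any other array. The chosen probe set of Amhr2 is of that kind too, as is the further one that read 876 on Control replicate 1. Its remaining probe set, which is not, read 241 on Control replicate 1, against 15.8 and 3.91 on the Rhau KO arrays and 2.51 on Control replicate 2.

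The 7 further probe sets that did not follow also all read at most 100 on every array. They were 1 each of Cntnap2, Eya4, Hoxa10, Plcd4, Sel1l3, Sln and Sypl2. The other probe set of sarcolipin, for example, read 9.10 on Control replicate 1 and between 10 and 31.4 on the other arrays. For Sln, Hoxa10 and Sel1l3 no further probe set repeated the pattern of the chosen one, so those 3 members rest on 1 probe set each, as do the 22 with a single one. For Cntnap2, Plcd4 and Sypl2 the further probe sets that followed read at most 81.4 on every array, where order carries little information. These members also rest mainly on their chosen probe set.

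**Figure D2:**
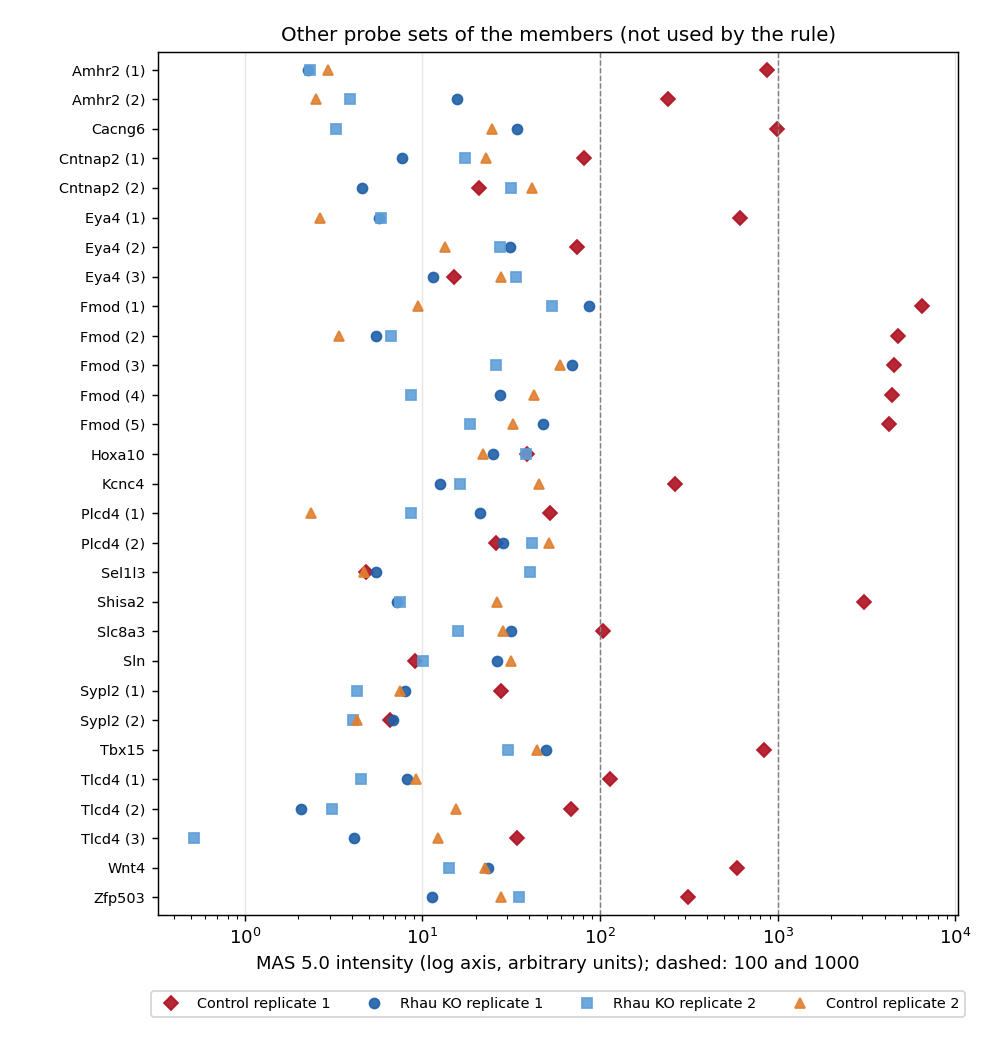
MAS 5.0 intensity (x axis, log scale, arbitrary units) of the 29 probe sets of members that the rule did not use, 1 point per array. Of the 29, 22 have the diamond of Control replicate 1 over 2-fold to the right of every other point, and the 7 that do not, like 6 of the 22, lie at or below 100 on all arrays.

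The members were next set among other genes of the same pathways, using 17 lists of muscle, position and cell type genes. Over all 18193 genes, 6.05% were over 2-fold higher on Control replicate 1 than on each other array, and the median log2 difference was -0.09. These list counts describe 1 array, and 19 of the 39 members are on a list. The rule fixed the direction of those members, so each count is also given without them. Of 24 measured genes for excitation-contraction coupling, 14 were over 2-fold higher on Control replicate 1 than on every other array and 3 were over 2-fold lower, with a median of 1.62. Without the 6 members on this list it was 8 of 18, with a median of 0.89. Junctophilin 1 (Jph1), which ties the tubule to the reticulum, read 13534 on Control replicate 1, against 725 and 766 on the Rhau KO arrays and 600 on Control replicate 2. Bin1, which shapes the tubule membrane, read 9374 on Control replicate 1, against 186 and 190 on the Rhau KO arrays and 193 on Control replicate 2. Among the genes that were lower, cardiac calsequestrin (Casq2) read 2318 on Control replicate 1, against 19382 and 17913 on the Rhau KO arrays and 16386 on Control replicate 2. Triadin (Trdn) and the small GTPase Rrad were lower too, with 1602 and 189 on Control replicate 1.

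Of 45 genes of the thin filament, Z-disc and cytoskeleton, 18 were over 2-fold higher on Control replicate 1 and 3 were over 2-fold lower, with a median of 0.81. Without the 2 members on it, 16 of 43 were higher. These 16 still hold Mylk2, which passed both limits and was left out of the members by its symbol, so its direction was fixed as well. Capn3, a muscle protease bound to titin, read 3930 on Control replicate 1, against 143 and 159 on the Rhau KO arrays and 86.0 on Control replicate 2. Synemin (Synm), an intermediate filament protein, read 13168 on Control replicate 1 and between 116 and 289 on the others. The 3 lower genes were Nebl, Csrp3 and cardiac actin (Actc1), of which Csrp3 read 8122 and Actc1 read 12364 on Control replicate 1, against at least 37867 and 45665 on each other array. Of 19 neuromuscular junction genes, 7 were higher and 3 lower, with a median of 1.06, and 0 were members. The acetylcholine receptor subunits Chrna1 and Chrne, of which Chrne is the adult form, read 837 and 227 on Control replicate 1 and at most 15.7 elsewhere, while the embryonic subunit Chrng read at most 22.0 on all arrays. Of 12 chloride and potassium channels 6 were higher (5 of 11 without the member Kcnc4), among them the muscle chloride channel Clcn1, with 422 on Control replicate 1 and at most 35.6 elsewhere.

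Metabolic genes were higher on Control replicate 1 in a part of the cases. Of 26 genes of glycolysis and glycogen, 10 were over 2-fold higher and 1 over 2-fold lower, with a median of 1.05. None of them was a member, and 22 read at least 1000 on Control replicate 1 and over 100 on some other array. Pfkfb3, which makes the activator of phosphofructokinase, read 5513 on Control replicate 1, against 155 and 198 on the Rhau KO arrays and 75.0 on Control replicate 2. Of 21 genes of purine, creatine and amino acid metabolism 9 were higher, and of 18 muscle ubiquitin ligase adaptors 3 were, with medians of 0.57 and 0.68. Mettl21e of the first of these lists, a methyltransferase gene, read 775 on Control replicate 1, against 39.7 and 48.6 on the Rhau KO arrays and 24.2 on Control replicate 2. Of 32 secreted and signaling proteins, 17 were higher (16 of 31 without the member Wnt4) and 2 lower, with a median of 1.58. Dkk2, a secreted regulator of Wnt signaling, read 763 on Control replicate 1, against 6.44 and 3.62 on the Rhau KO arrays and 28.9 on Control replicate 2.

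Myogenic regulators were higher in 13 of 29 measured cases and lower in 2, with a median of 1.22. Without the 2 members on this list, 11 of 27 were higher, with a median of 0.92. Myod1 read 463 and Myf5, its relative in muscle precursor cells, read 273 on Control replicate 1, with at most 54.7 and 9.75 on any other array. Myog read 310 on Control replicate 1 and at most 55.0 elsewhere. Pax7, the marker of muscle stem cells, and the fusion protein gene Mymk did not separate the arrays, at 60.3 and 6.54 on Control replicate 1 and at most 35.8 and 25.9 elsewhere. Msc and Prox1 were the 2 lower genes, with 22.7 and 61.4 on Control replicate 1 and at least 149 and 387 on the others.

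**Figure D3:**
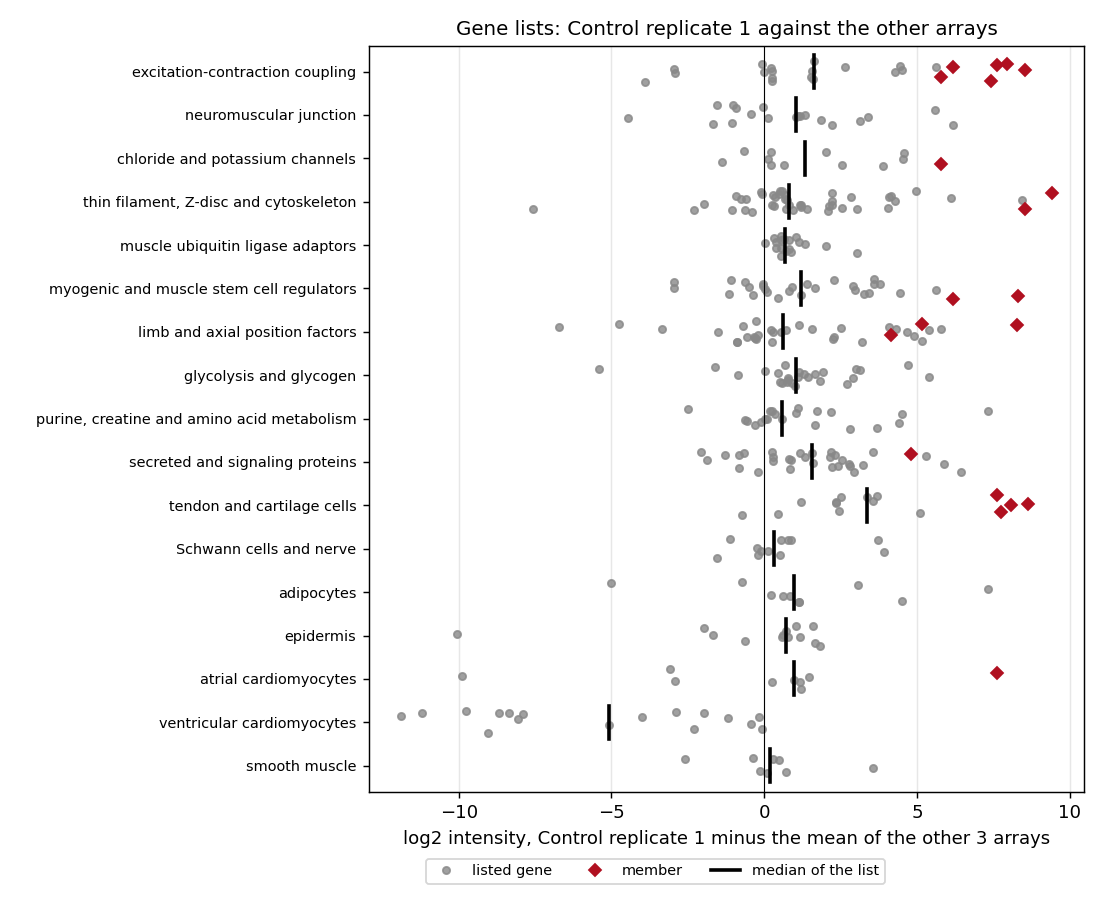
Log2 intensity on Control replicate 1 minus the mean of the other 3 arrays (x axis) for each measured gene of 17 lists, with members as diamonds and the list median as a bar. The tendon and cartilage list has the median farthest to the right, 3.35 with its 4 members and 2.46 without them, and the ventricular cardiomyocyte list the one farthest to the left, -5.08.

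Among position genes, Hox genes other than the 3 members were also higher. Of 33 measured Hox genes, 13 were over 2-fold higher on Control replicate 1 than on every other array, against 6.05% of all genes. Without the members Hoxc10, Hoxd9 and Hoxa10, whose direction the rule fixed, it was 10 of 30. The 13 were 4 of 9 Hoxa, 0 of 9 Hoxb, 6 of 7 Hoxc and 3 of 8 Hoxd genes. By number in the cluster, 0 of 7 genes numbered 1 to 3, 6 of 12 numbered 4 to 8, 6 of 7 numbered 9 to 10 and 1 of 7 numbered 11 to 13 were higher. Apart from Hoxb2 and Hoxa11, the genes numbered 1 to 3 and 11 to 13 read under 100 on every array. So did every Hoxb gene other than Hoxb2. Order carries little information at such levels, and these genes cannot show whether the arrays differed. All 3 members are numbered 9 or 10, and without them 3 of 4 genes with these numbers were higher. Hoxd8, over the upper limit of the rule, read 2499 on Control replicate 1, against 204 and 86.5 on the Rhau KO arrays and 110 on Control replicate 2. Hoxc9 read 711 on Control replicate 1, against 24.1 and 17.2 on the Rhau KO arrays and 18.5 on Control replicate 2. Hoxb9 was the 1 gene of the numbers 9 to 10 that was not higher, with 62.0 on Control replicate 1, against 92.8 and 53.2 on the Rhau KO arrays and 76.0 on Control replicate 2. The hindlimb genes Pitx1 and Tbx4 read 24.6 and 59.1 on Control replicate 1 and at most 46.5 and 61.0 elsewhere, and a second probe set of Tbx4 read 192 on Control replicate 1 and at most 56.9 elsewhere. Tbx5, a factor of the forelimb and of the heart, read 9.61 on Control replicate 1, against 279 and 247 on the Rhau KO arrays and 258 on Control replicate 2. The list of 34 limb and axial position genes holds 27 Hox genes and adds 7 others, of which 1 was higher (En1, at 99.7 on Control replicate 1 and at most 22.9 elsewhere) and 2 were lower (Tbx5 and Tcf21).

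**Figure D4:**
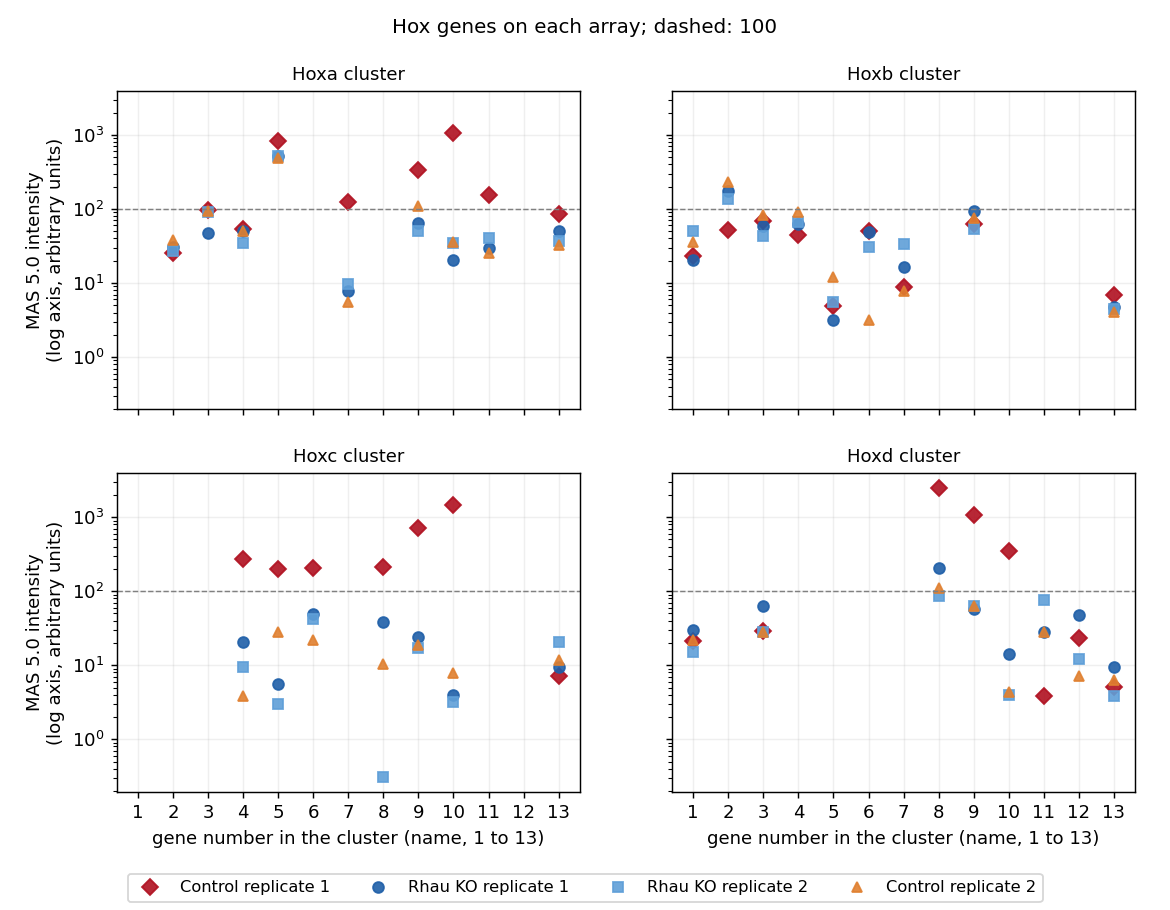
MAS 5.0 intensity (y axis, log scale, arbitrary units) of the measured Hox genes on each array, by cluster and by number in the cluster (x axis), with a dashed line at 100. Control replicate 1 lies above the other arrays for 6 of 7 Hoxc genes, the member Hoxc10 among them, and for 0 of 9 Hoxb genes by over 2-fold. The Hoxb genes other than Hoxb2 lie under 100 on every array.

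Markers of other cell types moved with the members in part. Of 15 tendon and cartilage genes, 12 were over 2-fold higher on Control replicate 1, with a median of 3.35 and a summed level of 29529, against 1524 and 1693 on the Rhau KO arrays and 1622 on Control replicate 2. Without the 4 members (Fmod, Tnmd, Kera and Chad), 8 of 11 were higher, with a median of 2.46 and a sum of 11211 on Control replicate 1, against 1429 and 1645 on the Rhau KO arrays and 1482 on Control replicate 2. Thbs4, a matrix protein of tendon and muscle attachment, read 5183 on Control replicate 1, against 348 and 524 on the Rhau KO arrays and 344 on Control replicate 2. Comp, a matrix protein of cartilage and tendon, read 1563 on Control replicate 1, against 102 and 210 on the Rhau KO arrays and 104 on Control replicate 2. The cartilage collagen Col2a1, counted among the higher genes, and aggrecan (Acan) read 30.0 and 22.7 on Control replicate 1. Both lay under 100 on all arrays, where order carries little information. The tendon factor Scx read 130 on Control replicate 1, against 50.6 and 133 on the Rhau KO arrays and 129 on Control replicate 2. Adipocyte genes were over 2-fold higher in 3 of 10 cases and lower in 1, with a summed level of 85195, against 36621 and 40696 on the Rhau KO arrays and 39364 on Control replicate 2. Car3, also abundant in slow muscle fibers, made up 56563 of that sum, and without it the sum was lower, at 28632 on Control replicate 1, against 36566 and 39414 on the Rhau KO arrays and 38744 on Control replicate 2. Cidea, a lipid droplet protein gene, was the lower gene, with 76.9 on Control replicate 1, against 2412 and 2343 on the Rhau KO arrays and 2823 on Control replicate 2. Ucp1, of the same list, read at most 7.92 on all arrays. Fabp4 read 19586 on Control replicate 1 and at least 31076 elsewhere. By contrast, adiponectin (Adipoq) read 911 on Control replicate 1, against 3.93 and 164 on the Rhau KO arrays and 97.5 on Control replicate 2.

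Schwann cell and nerve genes were higher in 2 of 12 cases, Mbp and Ncmap, and lower in 1, Mal, with a summed level of 5924, against 3958 and 4670 on the Rhau KO arrays and 4704 on Control replicate 2. Of 13 epidermal genes 1 was higher (Krtdap) and 2 were lower (Krt1 and Dsp). Krtdap and Krt1 read at most 70.5 on every array, where order carries little information. The list summed to 1369 on Control replicate 1, against 29434 and 31795 on the Rhau KO arrays and 32144 on Control replicate 2. Dsp, a desmosome gene that heart muscle also uses, carried nearly all of that difference, with 28.4 on Control replicate 1, against 28460 and 30968 on the Rhau KO arrays and 31209 on Control replicate 2. Of 8 smooth muscle genes 1 was higher (Lmod1) and 1 lower (Actg2). Of 9 atrial genes, the member sarcolipin alone was over 2-fold higher, so 0 of 8 without it, and 3 were lower, among them atrial natriuretic peptide (Nppa), with 24.8 on Control replicate 1, against 12550 and 30369 on the Rhau KO arrays and 33614 on Control replicate 2. The atrial light chain Myl7 read at most 35.2 on all arrays. Of the 17 ventricular genes 14 were over 2-fold lower on Control replicate 1. The part of these cell types in the members' values was not tested.

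For the comparison the series was built on, Rhau KO against Control, limma's moderated test on log2 intensities was fitted over all 18193 genes. All 39 members were lower in Rhau KO than in Control, with a median of -3.18 on the log2 scale against 0.09 over all genes, a direction that the choice of members fixes. At a fold of 2 and an unadjusted p under 0.05, 2 members were called lower, where 1.64% of all genes were, and nothing is read from this count because the rule used the same arrays. They were Tnmd, at -6.32 on the log2 scale (SE 2.00, limma adjusted p = 0.873), and Ppp1r1a, at -4.72 (SE 1.67, limma adjusted p = 0.873). After Benjamini-Hochberg adjustment limma called 0 members and 0 genes (0%), with 785 genes at an unadjusted p under 0.05, and an exact permutation of 2 against 2 arrays cannot go below p = 0.333.

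These counts turned on single arrays. Without Control replicate 1, which leaves 1 Control array with the spread of the Rhau KO arrays taken for it, the members' median was -0.38 and 25 of 39 were lower in Rhau KO. The 2 called lower were again Tnmd, at -3.41, and Ppp1r1a, at -2.28, where 1.54% of all genes were, and these levels lie at or below 67.3 on every array of that fit. After adjustment limma called 0 members (the smallest adjusted p was 0.324), where 149 genes (0.819%) passed. Without Control replicate 2, by contrast, all 39 members were called, also after adjustment, and 4097 genes passed, which sets the 2 Rhau KO arrays against Control replicate 1 alone. In that fit 6.45% of all genes were called lower and 22.5% passed after adjustment. Without Rhau KO replicate 1, 1 member was called lower, where 1.12% of all genes were, and without Rhau KO replicate 2, 0 members were, where 1.19% of all genes were. A difference of these 39 transcripts between Rhau KO and Control was therefore not measured apart from the difference between Control replicate 1 and the other 3 arrays.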

How the data were processed

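RNA labelled as mouse heart (2 samples labelled Rhau KO, 2 labelled Control) was measured on 1-color 3′ expression arrays. The authors deposited 1 intensity per probe set and array, made with the MAS 5.0 method, on a linear scale. Of 45101 probe sets, 64 controls were left out, and 34945 of the rest carried 1 gene symbol in the platform annotation. Counted over all probe sets, controls included, 932 carried several symbols and 9211 none. For 9010 genes with more than 1 probe set the one with the highest mean log2 intensity was kept. The number of arrays limits the precision. No background test of a probe set was available here, so values under 100 were read as dim, not as absent.

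Members were selected at limits of 1000 and 100. The members, their roles and the gene lists were chosen with earlier results of these data known. Named by a rule were members on a list, the 20 brightest on Control replicate 1, the 3 genes nearest each limit on either side, members whose further probe sets did not follow (up to 10) and defining cell type markers. Other members, and list genes that are no members, were named after their values were seen. Rhau KO was compared with Control by limma 3.58.1 (lmFit, eBayes with a trend) in R 4.3.3 on log2 intensities with no pseudocount, with Benjamini-Hochberg adjustment over 18193 genes. On simulated data for this comparison with 18193 genes, 17% of genes changed by 2 on the log2 scale were recovered at an adjusted p of 0.05. Of those changed by 4, 54% were recovered, and 10 unchanged genes were called too. The simulated noise had the same spread on every array and set no array apart as Control replicate 1 was. Recovery in these data can therefore differ. The deviations of same-numbered replicates from their group means correlated at r = 0.006. With 2 arrays per group these deviations mirror each other, so both pairs give the same value. It cannot show whether replicates were paired. The labels name no pairing, and the main fit used no block. Alternatives were other limits, quantile normalization, median centring, a pseudocount of 32, the mean of all probe sets, brighter genes only, a replicate block, the t-test the methods name and leaving out each array. Promoters were taken from RefSeq.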

Additional observations from a re-analysis of the deposited data

How the results depend on the processing

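The number of members depended on the limits, with 68 at a lower limit of 500, 22 at 2000, 17 at an upper limit of 50 and 60 at 200, where the limits used gave 39. It was 41 after median scaling and after quantile normalization, both holding all 39 members, and 27 where each gene's probe sets were averaged. The median log2 difference of 6.75 was 5.20 with a pseudocount of 32 and 4.54 with values under 100 set to 100, and leaving out 1 of the other arrays gave 6.50 to 7.12. That every member stayed higher on Control replicate 1 under these settings is fixed by the rule. With averaged probe sets 13 members moved by more than their spread, the lowest to 1.95 (Sel1l3). The share of 75.9% of further probe sets was 55.2% at a 4-fold margin. It was 100% among those of at least 200 on 1 array, which says nothing, since each reached 200 on Control replicate 1 only. The share without Fmod was chosen after seeing the data.

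For Rhau KO against Control, the 599 genes over a 2-fold change at an unadjusted p under 0.05 became 338 with the pseudocount, 167 among brighter genes and 351 with the methods' t-test, and leaving out 1 array gave 285 to 3282. They split into 300 higher and 299 lower, against 237 and 379 after median centring, which moved the median of all genes to -0.04, where it was 0.09. The 2 members called lower became 1 with no trend, where 2.13% of all genes were called lower. They became 4 after quantile normalization, where 1.92% of all genes were, and 4 after median centring, where 2.08% were. With the pseudocount they became 0, where 0.912% of all genes were. Among brighter genes they became 0 (where 3 members were left and 1.12% of those genes were called lower). With the methods' t-test they became 0, where 0.94% of all genes were. With 1 array left out, the members' median log2 difference ran between -7.12 and -0.38, where it was -3.18. The value of -7.12 came without Control replicate 2, where the rule fixed the direction. With the replicate block, 13 members were called lower, where 1.73% of all genes were, and 0 genes passed after adjustment. The 0 genes at an adjusted p under 0.05 became 0 to 4097 when 1 array was left out, of which 149 without Control replicate 1. Causes were not tested. Values under 100 limit what the low arrays can show.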
